A study of Xenopus tropicalis with 12 samples.

Results

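The elastase genes of *Xenopus tropicalis* were followed in RNA from livers taken during metamorphosis. The gene table names 9 of them among 26529 genes: cela1.1, cela1.2, cela1.4, cela1.5 and cela1.6, cela2a, and cela3a, cela3b and ela3b. They were taken by name, and levels are given as CPM (the count of a gene per 1000000 counts of its library), singly and summed. The 12 libraries, 3 per group, came from wild-type animals with the same parents: livers of stage 54 tadpoles kept for 18 h in 10 nM T3, the thyroid hormone triiodothyronine (T3), and livers of untreated animals at stage 54, before the hormone rises (st54), at stage 61, the climax of metamorphosis (st61), and at stage 66, its end (st66). By the series' design text, replicates came from different tadpoles. The labels do not say whether an RNA sample was taken from 1 liver or from several, nor how the liver was freed from neighbouring tissue.

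Pancreatic elastases are serine proteases that the acinar cells of the exocrine pancreas store as inactive precursors in zymogen granules. They are released into the gut, where trypsin activates them, and they digest dietary protein. In mammals the CELA1 enzyme is known for cleaving elastin. In frogs the exocrine pancreas of the tadpole shrinks at climax and is rebuilt as the adult gland, and its larval acinar programme is lost on the way. How much pancreas was taken with each liver is not stated, and the source of the elastase RNA was not tested.

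cela1.1, cela1.5, cela1.6 and cela2a were abundant at stage 54 and were lower in st66 than in st54. cela1.2, cela1.4, ela3b and cela3a were at or near the detection floor at stage 54 and were higher in st66, the first 3 of them already in st61. cela3b was low in every library and was called in no comparison. None of the 9 passed the test in T3 vs st54.

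Total counts ran from 7928459 to 39536147 per library, so that the floor of 3 counts was worth 0.0759 to 0.378 CPM. A list of 13 liver genes, led by tf (transferrin), summed to between 49521 and 79850 CPM in the 12 libraries, and in the same libraries 20 pancreatic enzyme genes other than elastases summed to between 516 and 4479 CPM. In such bulk samples, fewer pancreatic cells and less RNA per cell cannot be told apart. The 3 T3 libraries lay much closer together than those of the other groups. Over the 9 elastase genes, chi-square per degree of freedom between the libraries of a group was 2.43 in T3, against 1220 in st54, 1151 in st61 and 176 in st66, where sampling noise alone gives values near 1. The T3 libraries were counted as 3 samples and enter the shared estimate of spread. Whether they came from 1 pool of RNA was not tested. Every p-value of T3 vs st54 depends on their being separate samples. Through the shared estimate of spread, so do the p-values of the other comparisons.

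Summed over the 9 genes, elastase RNA stood at 1106, 154 and 609 CPM in st54 replicates 1 to 3, at 382, 1219 and 219 CPM in st61, and at 37.0, 269 and 94.0 CPM in st66. The libraries of the 3 stages overlapped, and the highest was 7.18 times the lowest within st54, 5.56 times within st61 and 7.27 times within st66. Group means were 623 ± 476 CPM in st54, 607 ± 537 CPM in st61 and 133 ± 121 CPM in st66 (mean ± SD, n = 3).

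The other pancreatic enzymes varied alongside. Without amy2b, an amylase gene that held 635 to 710 CPM in st54 whatever the level of the other enzymes, the 19 remaining genes summed to 3701, 494 and 1594 CPM in st54, 1284, 3673 and 435 CPM in st61, and 184, 814 and 265 CPM in st66. amy2b was set aside after its values were seen. Per count of these 19 genes, some of which changed between stages themselves, the summed elastases gave 0.299, 0.312 and 0.382 counts in st54, 0.298, 0.332 and 0.504 in st61, and 0.201, 0.331 and 0.355 in st66. On that scale the stages overlapped, and the ratio of group means of st66 to st54 was -0.16 (log2), against -2.22 on the CPM scale. With amy2b kept in, it was -0.45. Of the genes whose CPM ran closest to the elastase sum over the 12 libraries, ctrc (chymotrypsin C) had Pearson's r = 0.987 and cpa1 (carboxypeptidase A1) r = 0.975. They were followed by LOC100489516 (r = 0.974), gp25l (r = 0.952) and ctrl (chymotrypsin-like protease, r = 0.95). These values describe 12 libraries, within each of which all genes share depth and tissue make-up. They were computed on log2(CPM + 1) and sought among 15093 genes.

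**Figure D1:**
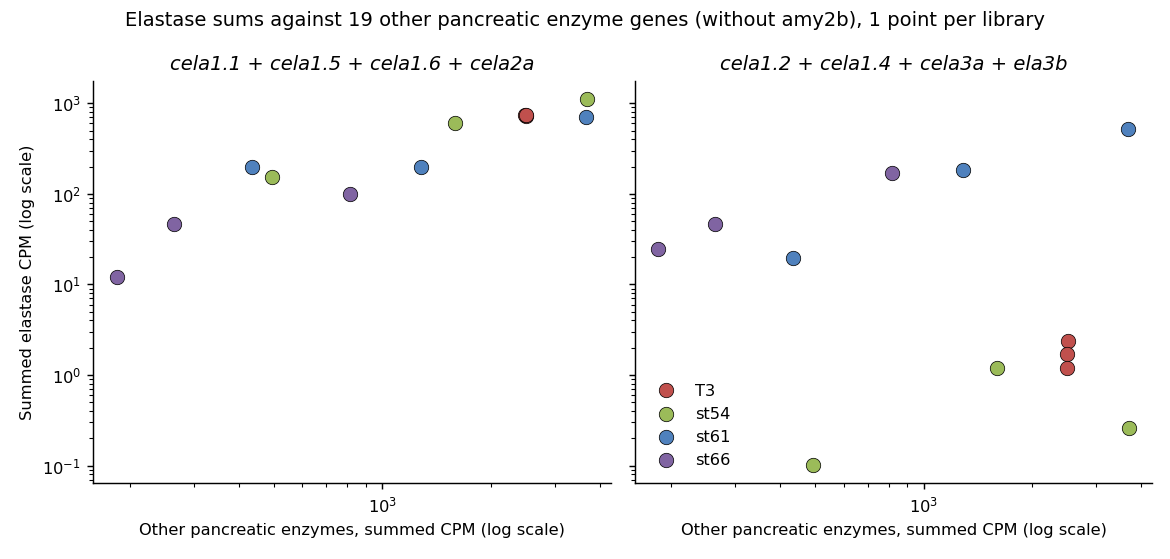
Each point is 1 library, with the summed CPM of 19 other pancreatic enzyme genes on the x axis and the summed CPM of 4 elastase genes on the y axis, both on log scales, and colours for T3, st54, st61 and st66. The cela1.1, cela1.5, cela1.6 and cela2a sum lay between 731 and 747 CPM in T3, 154 and 1105 CPM in st54, 196 and 703 CPM in st61 and 12.01 and 98.4 CPM in st66, and the cela1.2, cela1.4, cela3a and ela3b sum lay between 0.102 and 2.35 CPM in the T3 and st54 libraries and between 19.8 and 515 CPM in the st61 and st66 libraries. The sets of 4 were formed after the values were seen.

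The cela1 genes lie side by side on chromosome 2, from 142362956 to 142415881, a stretch of 52.9 kb that holds no other gene of the table. Coordinates are those of the deposited table, whose start and end for all 9 elastase genes equal those of the UCB_Xtro_10.0 assembly in RefSeq. The order from the lower coordinate is cela1.5, cela1.4, cela1.6, cela1.2 and cela1.1, all on the minus strand, with gaps of 3761 to 6252 bases. Summed exon lengths run from 881 to 966 bases. Along the row, genes that were lower in st66 than in st54 and genes that were higher alternate without exception.

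**Figure D2:**
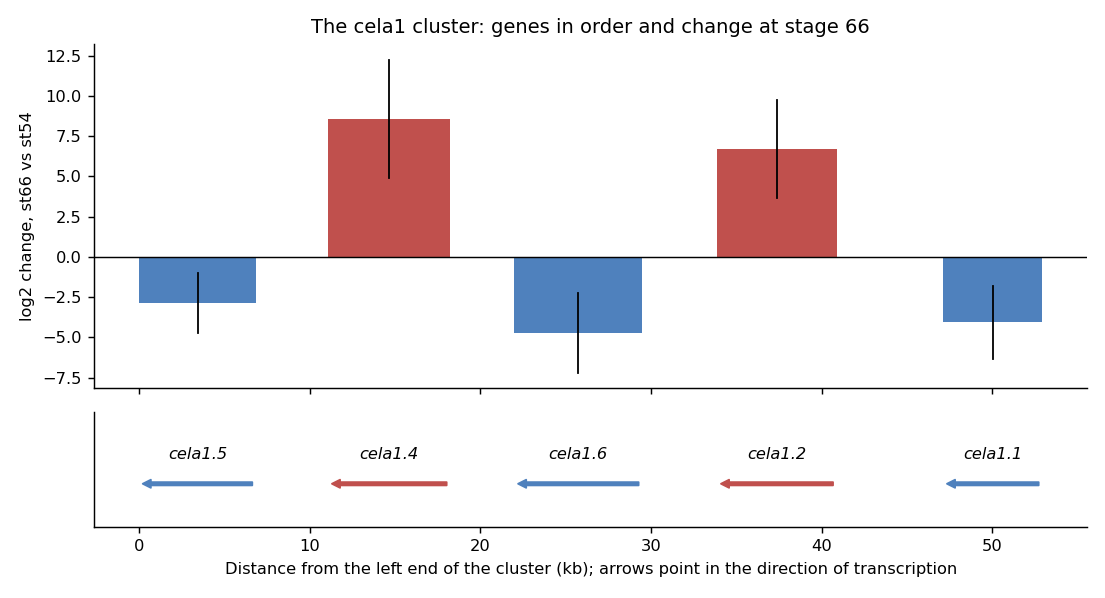
The cela1 cluster drawn to scale, with distance from its left end in kb on the x axis, arrows for the direction of transcription, and above each gene its log2 change in st66 vs st54 as a bar with its 95% interval. cela1.5, cela1.6 and cela1.1 (blue) had log2 changes of -2.85, -4.72 and -4.07, and cela1.4 and cela1.2 (red), which lie between them, had log2 changes of 8.57 and 6.70.

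cela1.5 (142362956 to 142369799) was the most abundant elastase of stage 54. Its level was 612, 109 and 464 CPM in st54, 126, 419.6 and 168 CPM in st61, and 7.97, 80.6 and 41.1 CPM in st66. All st66 libraries lay below all st54 libraries, while st61 overlapped st54. The log2 change was -2.85 ± 0.85 (SE, as throughout) in st66 vs st54 (adjusted p = 0.045), by the quasi-likelihood test of edgeR and adjusted after Benjamini and Hochberg over 15102 genes, as for every adjusted p below. In st61 vs st54 it was -0.71 ± 0.79 (adjusted p = 0.60). The st66 call was narrow: the adjusted p was 0.13 without st54 replicate 1, 0.066 without st54 replicate 3, 0.057 and 0.058 without st61 replicates 1 and 3, 0.11 without st66 replicate 3 and 0.068 without each T3 library. Without st66 replicate 2 the log2 change was -3.77. The call also ended without the filter on low counts (0.072), with st66 and st54 fitted alone (0.18), with the T3 libraries summed to 1 (0.10) and with the replicate number as a block (0.060).

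cela1.1 (142410083 to 142415881) stood at 285, 23.8 and 77.2 CPM in st54, 61.3, 247 and 23.4 CPM in st61, and 3.53, 11.9 and 4.11 CPM in st66. It did not pass in st61 vs st54 (log2 change -0.20 ± 0.89, 95% interval -2.15 to 1.75, adjusted p = 0.91) and was lower in st66, where no library reached the lowest of st54 or st61. The change was -4.07 ± 1.04 against st54 (adjusted p = 0.024) and -3.87 ± 1.03 against st61 (adjusted p = 0.037). Against st54 the adjusted p was 0.094, with a log2 change of -2.74, without st54 replicate 1, and 0.075 without st66 replicate 3; the change was -5.01 without st66 replicate 2. That call ended, too, without the filter (0.051), with st66 and st54 fitted alone (0.074) and with the T3 libraries summed (0.062). The call against st61 ended without st61 replicate 1 (0.060) or 2 (0.15, log2 change -2.63), without st66 replicate 1 (0.056), 2 (0.051, log2 change -4.80) or 3 (0.11), and without each T3 library (0.059). It ended as well without the filter (0.074), with st66 and st61 fitted alone (0.084), with the T3 libraries summed (0.095) and with the replicate block (0.062).

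cela1.6 (142384951 to 142392438) had 149, 12.9 and 41.3 CPM in st54, 8.28, 36.7 and 7.89 CPM in st61, and 0.454, 5.55 and 1.06 CPM in st66. The st66 libraries lay below the others, with a log2 change of -4.72 ± 1.13 against st54 (adjusted p = 0.017). That call ended without st54 replicate 1 (adjusted p = 0.064, log2 change -3.41), without st66 replicate 3 (0.059) and with st66 and st54 fitted alone (0.091). The change was -3.99 without st66 replicate 1 and -6.60 without st66 replicate 2. The st61 change of -1.92 ± 0.93 against st54 did not pass (adjusted p = 0.19).

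cela2a lies on chromosome 7 (129467951 to 129475322, minus strand), apart from the cluster of cela3 genes on that chromosome. In mammals its product cleaves after bulky hydrophobic residues. It had 59.5, 7.59 and 24.7 CPM in st54, 0.527, 0.475 and 0.215 CPM in st61, and 0.0505, 0.378 and 0.470 CPM in st66. The st61 and st66 values rested on 10, 10 and 4 counts and on 1, 3 and 4 counts, against 1386, 223 and 308 counts in st54. It was the only one of the 9 called lower in st61 vs st54, with a log2 change of -6.16 ± 0.77 (adjusted p = 0.00027), and the change in st66 vs st54 was -6.90 ± 0.91 (adjusted p = 0.00060). Both calls held without each library in turn. The st61 change was -5.24 without st54 replicate 1. The st66 change was -5.97 without st54 replicate 1, -5.79 without st66 replicate 1 and -7.64 without st66 replicate 3.

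Against the 19 other enzymes, cela2a gave 16.1, 15.4 and 15.5 counts per 1000 of their counts in st54, where the libraries differed 7.84-fold in cela2a CPM. That closeness depends on leaving out amy2b: with amy2b kept in, the values in st54 were 13.5, 6.30 and 11.1 per 1000. Without amy2b, cela2a gave 0.411, 0.129 and 0.493 per 1000 in st61, and 0.274, 0.465 and 1.78 per 1000 in st66. The st61 libraries included one, replicate 2, whose other enzymes (3673 CPM) summed to about as much as in the highest st54 library (3701 CPM). The make-up of these sums differed between the stages. Of 18 tested enzyme genes, amy2b included, 5 were called higher and 2 lower in st61 vs st54, where 18.9% of all genes were called. Among them prss1 was at 399 ± 418 CPM in st61 and 1.18 ± 1.96 CPM in st54. Whether the amount of pancreas was alike was not tested.

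Of the copies that were low at stage 54, cela1.4 (142374043 to 142381189) had 0, 1 and 5 counts in st54. Its level was 0, 0.0340 and 0.401 CPM in st54, 36.6, 184 and 7.46 CPM in st61, and 7.07, 66.7 and 19.2 CPM in st66, with no overlap of st54 with the later stages. It rose in st61 vs st54 (log2 change 9.55 ± 1.69, adjusted p = 0.0025) and was higher in st66 than in st54 (8.57 ± 1.68, adjusted p = 0.0061). Fitted changes against so few counts depend on the fit's prior count. Over pooled counts, 4715 in st61 and 6 in st54, the ratio of CPM was 873 (95% counting interval 401 to 2380), and with 832 counts in st66 it was 249 (114 to 681). The log2 change in st61 vs st54 was 8.89, 8.96 and 11.63 without st54 replicates 1, 2 and 3 and 7.86 without st61 replicate 2. Against st54, the st66 change was 7.92, 7.99 and 10.65 without st54 replicates 1, 2 and 3 and 7.17 without st66 replicate 2.

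cela1.2 (142396840 to 142403830), for which RefSeq gives the synonym cela1, was also near 0 at stage 54. It had 0.129, 0.0340 and 0.561 CPM in st54, 66.3, 221 and 10.8 CPM in st61, and 4.85, 32.4 and 9.99 CPM in st66. It rose by a log2 change of 9.08 ± 1.42 in st61 vs st54 (adjusted p = 0.0012) and was higher by 6.70 ± 1.38 in st66 vs st54 (adjusted p = 0.0081). Pooled counts of 6109 in st61 and 438 in st66, against 11 in st54, gave ratios of 617 (95% counting interval 345 to 1237) and 71.6 (39.6 to 144). Its st61 change was 8.38 and 10.26 without st54 replicates 2 and 3 and 7.80 without st61 replicate 2, and the st66 change 6.01, 7.88 and 5.44 without st54 replicate 2, st54 replicate 3 and st66 replicate 2.

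Counts of cela1.2 and cela1.4 made up very unequal shares of the cela1 cluster by stage. In st54 they were 3 of 24379 counts, 2 of 4299 and 12 of 7278, or 0.0123% (exact Clopper-Pearson 95% interval 0.00254 to 0.0360%), 0.0465% (0.00563 to 0.168%) and 0.165% (0.0852 to 0.288%). In st61 the shares were 34.5%, 36.6% and 8.39%, and in st66 49.9%, 50.3% and 38.6%. The intervals cover counting error only. Reads of similar copies may be split or dropped in counting, and the sequences of the copies were not compared here. In st54 replicate 1 cela1.4 had 0 and cela1.2 had 3 counts beside 24376 counts of cela1.1, cela1.5 and cela1.6. In st54 replicates 2 and 3 cela1.4 had 1 and 5 counts beside 4297 and 7266. Whether any of these few counts were reads of the other copies was not tested.

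The cela3 genes lie within 33.9 kb of chromosome 7 (132106352 to 132140229), on the minus strand in the order cela3a, ela3b and cela3b. Elastases of this class show little activity on elastin itself in mammals and act as general digestive proteases. ela3b (132120564 to 132131624) had 0.129, 0.0340 and 0.160 CPM in st54, 82.0, 109 and 1.5 CPM in st61, and 11.8, 63.8 and 13.99 CPM in st66. It rose in st61 vs st54 (log2 change 9.38 ± 1.75, adjusted p = 0.0034) and was higher in st66 than in st54 (8.54 ± 1.74, adjusted p = 0.0077, and 7.12 without st66 replicate 2). st61 replicate 3 had 28 counts of ela3b where replicates 1 and 2 had 1555 and 2305, and it was also the st61 library with the fewest counts of cela1.4 and cela1.2.

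cela3a (132106352 to 132109595) was called higher in st66 against both earlier stages. It had 0, 0 and 1 counts in st54, 2, 4 and 1 counts in st61, and 17, 57 and 25 counts in st66, or 0.858, 7.19 and 2.94 CPM in st66. It was higher in st66 than in st61 (log2 change 5.12 ± 0.98, adjusted p = 0.0083) and than in st54 (7.70 ± 1.25, adjusted p = 0.0022). cela3a passed the filter on low counts through st66, so these calls are not independent of that filter. No other elastase gene was called higher in st66 vs st61, and with st66 and st61 fitted alone cela3a was not (adjusted p = 0.052); ela3b and cela1.4 had changes of -0.84 ± 1.05 and -0.97 ± 1.02 there. Pooled, 99 counts in st66 against 1 in st54 gave a ratio of 178 (95% counting interval 31.2 to 7101), and 99 against 7 in st61 a ratio of 22.9 (10.7 to 58.4). Without st66 replicate 2 the change was 4.003 against st61 and 6.60 against st54, and the change against st54 was 7.01 and 9.73 without st54 replicates 2 and 3.

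cela3b (132134357 to 132140229) is listed as a long non-coding RNA in RefSeq. It held between 0.0340 and 1.42 CPM in the 12 libraries. Its changes of 2.01 ± 1.008 in st61 vs st54 and 1.96 ± 1.08 in st66 vs st54 did not pass (adjusted p = 0.20 and 0.26), but they did without st54 replicate 3, the st54 library with 10 of its 12 counts (adjusted p = 0.013 and 0.022, log2 changes 4.41 and 4.33).

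**Figure D3:**
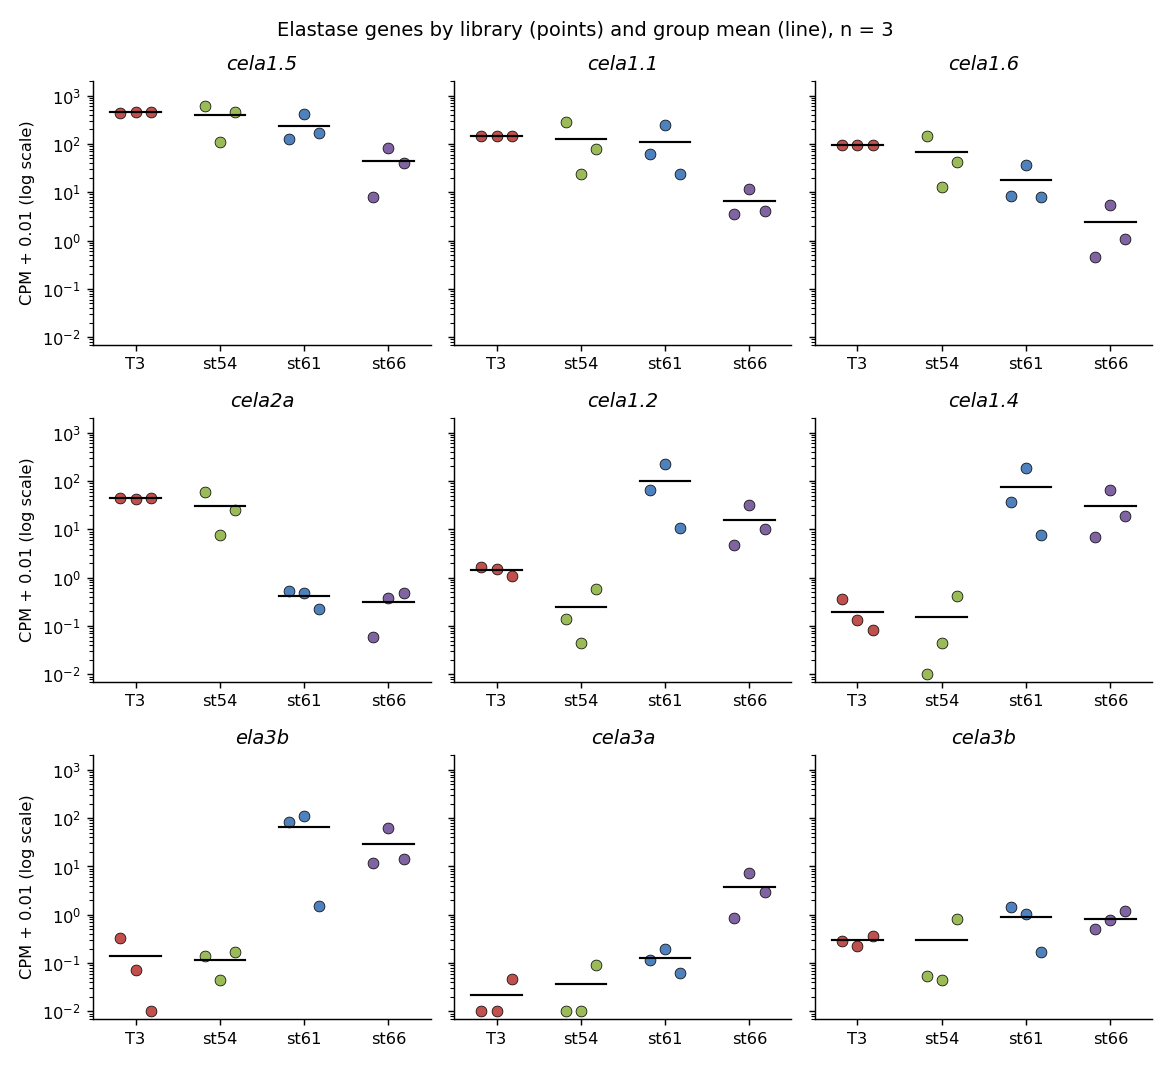
CPM + 0.01 on a log axis for each elastase gene, with 1 point per library for T3, st54, st61 and st66 and a line at the mean of 3. cela1.5, cela1.1, cela1.6 and cela2a had their lowest points in st66, cela2a already from st61, and cela1.2, cela1.4 and ela3b lay below 2 CPM in all T3 and st54 libraries and, except for ela3b in st61 replicate 3 (1.5 CPM), above it in all st61 and st66 libraries.

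Counted over the 9 genes, all of which passed the filter on low counts, 3 were called higher and 1 lower in st61 vs st54, where 10.0% of 15102 genes were called higher and 8.85% lower. 4 were higher and 4 lower in st66 vs st54, where 8.23% and 5.48% of genes were, 13.7% in all. In st66 vs st61, 1 was higher and 1 lower, where 5.75% and 4.28% of genes were. The calls over all genes moved with the fit. In st66 vs st54 they were 1243 higher and 827 lower, against 296 and 271 with only these groups fitted. In st66 vs st61 they were 868 and 647, against 181 and 170. In st61 vs st54 they were 1516 and 1337, against 1208 and 945. Without T3 replicate 1 they were 932 and 648, 580 and 405, and 1275 and 1028, in that order. Groups did not overlap in CPM for 4 of the 9 genes in st61 vs st54 (36.3% of all genes), 8 in st66 vs st54 (19.9%) and 4 in st66 vs st61 (21.1%). The 4 lower calls in st66 vs st54 were 1 without st54 replicate 1 or without st66 replicate 3. The comparisons of st61 and of st66 with st54 share the st54 libraries. cela1.2, cela1.4, ela3b and cela3a had at most 7 counts in any st54 library. They passed the filter through the other groups, cela3a through st66, where alone it rose above 0.190 CPM. Their higher calls are therefore not independent of the filter. Per 1000 counts of the 19 other enzymes, a denominator that itself differed between the stages, cela1.1 gave 19.2, 14.6 and 15.5 in st66 against 76.9, 48.2 and 48.4 in st54, and cela1.4 gave 38.4, 82.0 and 72.4 in st66 against 0, 0.0689 and 0.251 in st54. In st61 cela1.1 gave 47.8, 67.2 and 53.7 on that scale. There cela1.5 gave 43.3, 99.0 and 155 in st66, against 165, 222 and 291 in st54. The 18 tested pancreatic enzyme genes other than elastases had a median log2 change of -2.11 in st66 vs st54.

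**Figure D4:**
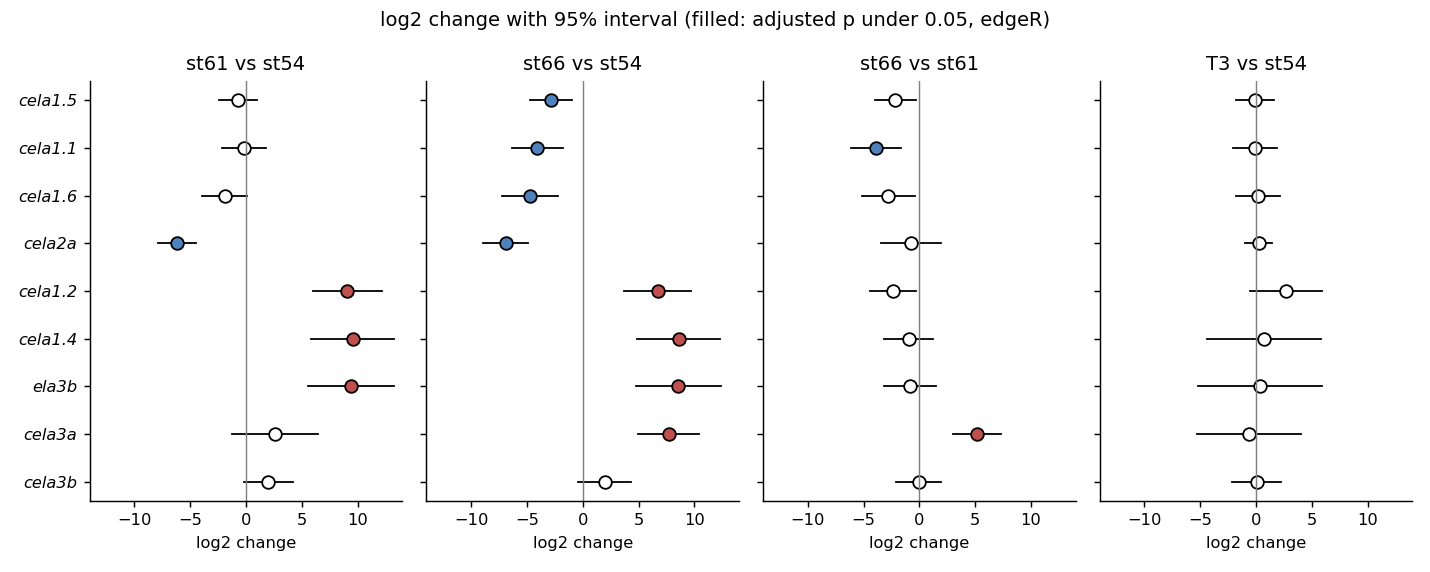
log2 change of each elastase gene with its 95% interval in the 4 comparisons, filled where the adjusted p was under 0.05 (red higher, blue lower). In st66 vs st54 the changes fall into 4 below -2.8, 4 above 6.7 and cela3b at 1.96, and in T3 vs st54 every interval spans 0.

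Per length, levels can be set beside each other. TPM are counts per kilobase scaled to a common total. By group mean they put cela1.5 first in every group. Its means were 661 ± 436 TPM in st54, 431 ± 302 TPM in st61 and 64.6 ± 52.2 TPM in st66. In st66 replicate 1, however, ela3b (20.9 TPM) stood above cela1.5 (15.1 TPM). In st54 cela1.1 (202 TPM), cela1.6 (111 TPM) and cela2a (34.3 TPM) followed in that order in all 3 libraries, although neighbours in the order overlapped across libraries. A gap without overlap separated cela2a from cela1.2 (0.371 TPM), the next. In st61 the order after cela1.5 was cela1.1 (187 TPM), cela1.2 (173 TPM), cela1.4 (142 TPM) and ela3b (110.2 TPM), all overlapping. In st66 cela1.4 (47.2 TPM) and ela3b (42.8 TPM) came next to cela1.5, again overlapping, and cela2a (0.296 TPM) was last.

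As a share of the elastase level per length, cela1.5 made up 57.9, 73.4 and 78.2% in st54, 34.1, 35.4 and 77.5% in st61, and 22.4, 30.7 and 44.8% in st66. cela1.4 made up at most 0.0685% in st54, 10.1, 15.8 and 3.49% in st61, and 20.1, 25.8 and 21.2% in st66. ela3b made up at most 0.0254% in st54, 20.8, 8.67 and 0.651% in st61, and 31.0, 22.8 and 14.3% in st66. The share of cela3a was 2.21, 2.51 and 2.93% in st66 and at most 0.0262% elsewhere. In st61 the make-up differed between libraries: cela1.1, cela1.5, cela1.6 and cela2a held 51.7, 57.7 and 91.0%, and replicate 3, at 91.0%, had the fewest other-enzyme counts of its stage (435 CPM without amy2b). Whether the amount of pancreas bears on the make-up was not tested.

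**Figure D5:**
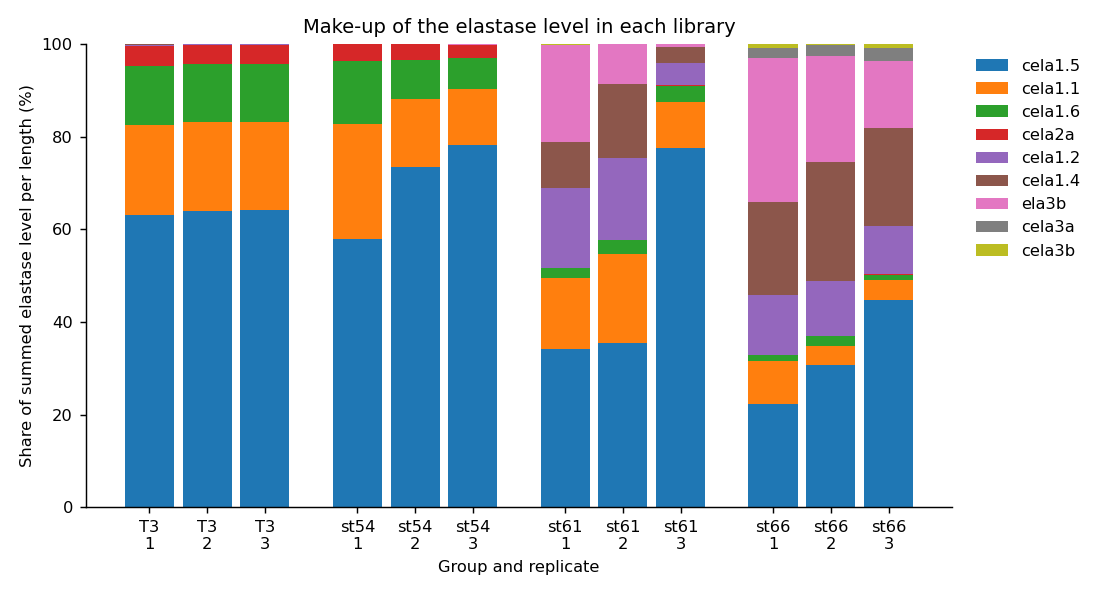
Share of each elastase gene in the summed elastase level per length (%), 1 bar per library, grouped as T3, st54, st61 and st66. cela1.5, cela1.1, cela1.6 and cela2a fill over 99% of every T3 and st54 bar and between 32.9 and 50.4% of the st66 bars.

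Most similar in pattern to single elastase genes were, by Pearson's r on log2(CPM + 1) over the 12 libraries, cpa1 for cela1.1 (0.989), ctrl for cela1.6 (0.990), fxyd2 for cela1.5 (0.955), LOC100487482 for cela2a (0.996), slc15a2 for cela1.2 (0.972), pdilt for cela1.4 (0.985), ctrb2 for ela3b (0.982), LOC100498532 for cela3a (0.991) and rhbg for cela3b (0.941). Between elastase genes, r was 0.927 to 0.944 among cela1.1, cela1.5 and cela1.6, and 0.933 to 0.967 among cela1.2, cela1.4 and ela3b. Between cela2a and cela1.4 it was -0.842. Genes measured in the same library share its depth and tissue make-up, both of which differed between libraries, and these values are descriptions.

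None of the 9 elastase genes passed the test after 18 h of T3, and the intervals of the changes were wide. Summed, they were at 734, 745 and 749 CPM in T3 libraries, against 1106, 154 and 609 CPM in st54 libraries, and per count of the 19 other enzymes at 0.293, 0.2996 and 0.299 in T3, against 0.299, 0.312 and 0.382 in st54. cela1.5 was at 444, 457 and 461 CPM in T3, within the st54 range of 109 to 612 CPM. cela2a was at 45.6, 43.2 and 44.5 CPM in T3, within the st54 range of 7.59 to 59.5 CPM. Per 1000 counts of the 19 other enzymes, cela2a gave 18.2, 17.4 and 17.8 in T3, against 16.1, 15.4 and 15.5 in st54, without overlap. In CPM, where cela2a did overlap, the T3 and st54 libraries did not overlap for 54.1% of all genes. The share of all genes on the enzyme scale was not computed. For cela1.5 the log2 change was -0.10 ± 0.79 (95% interval -1.82 to 1.62), and for cela2a 0.24 ± 0.56 (-0.97 to 1.46). The signs of cela1.5 and cela1.1 turn with the scaling (0.20 each with column sums), which moves the median of all genes in this comparison from -0.05 to 0.25.

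edgeR called 0 of the 9 genes in T3 vs st54, 0 were at an unadjusted p under 0.05, and DESeq2 called 0, where edgeR called 17.0% of all genes, 9.47% higher and 7.55% lower. That share moved with the processing: 1430 genes were higher and 1140 lower, against 1739 and 375 with column sums, 1168 and 1478 with upper-quartile factors, and 62 and 0 with the T3 libraries summed to 1. The only 1 of the 9 genes whose T3 and st54 libraries did not overlap in CPM was cela1.2. It had 66, 48 and 30 counts in T3 libraries, or 1.67, 1.51 and 1.08 CPM, against 3, 1 and 7 counts in st54, or 0.129, 0.0340 and 0.561 CPM. All T3 libraries lay above all st54 libraries; over all genes, these groups did not overlap, in either direction, for 54.1%. The log2 change of 2.65 ± 1.47 did not pass (adjusted p = 0.22) in the fit of all 12 libraries, and passed when T3 and st54 alone were fitted (adjusted p = 0.036), a fit that called 2412 of all genes higher and 2339 lower. It was 1.96 without st54 replicate 2 and 3.84 without st54 replicate 3. Over pooled counts, 144 against 11, the ratio was 8.62 (95% counting interval 4.68 to 17.7). That interval covers counting error only and not the spread between libraries. The fitted 95% interval of the log2 change, which includes that spread, ran from -0.56 to 5.86. The T3 level of cela1.2 was far under that of st61 (10.8 to 221 CPM). cela1.4, ela3b and cela3a had 20, 15 and 1 counts in the T3 libraries together, against 6, 6 and 1 in st54.

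Of the stomach genes, 2 were called higher in T3 vs st54, both subunits of 1 proton pump, where 9.47% of all genes were called higher. A list of 8 stomach genes, led by cblif, gastric intrinsic factor, summed to between 46.0 and 50.4 CPM in T3 libraries, against 8.41 to 20.2 CPM in st54 libraries, with 2 of 3 tested genes higher and 0 called in the other comparisons: atp4a, the catalytic subunit of the gastric proton pump, was at 14.8, 14.05 and 12.6 CPM in T3, against 0.129, 0 and 0 CPM in st54 (adjusted p = 5.98e-05), and its partner atp4b was higher too (adjusted p = 0.00059). cblif was not called. gkn1, a stomach mucosa gene, was at 0 in every library, and muc5ac, pga4, sox2 and pgc reached at most 19, 9, 4 and 1 counts. tmprss15, the intestinal enteropeptidase that activates trypsinogen, was at 1.21, 1.42 and 1.52 CPM in T3 and at 0 in every other library. Their part in the cela1.2 values was not tested.

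Other genes of the acinar cell were read from lists, beside which the shares of all genes called were 18.9% in st61 vs st54, 13.7% in st66 vs st54, 10.0% in st66 vs st61 and 17.0% in T3 vs st54. Of 18 tested pancreatic enzyme genes, 5 were higher and 2 lower in st61 vs st54 (median log2 change -0.03, as for all genes). The 5 were try10, prss1 and prss3, trypsin genes, ctrb2, a chymotrypsinogen, and cel, the bile salt lipase. prss1 stood at 399 ± 418 CPM in st61 and 1.18 ± 1.96 CPM in st54 (adjusted p = 0.0051), and try10 at 55.5 ± 74.6 CPM in st61 and 0.0944 ± 0.128 CPM in st54 (adjusted p = 0.0059). In st66, 5 were higher and 6 lower than in st54 (median -2.11, against 0.05 for all genes). Here prss3, try10, ctrb2 and prss1 were among those higher, and pnlip, pancreatic lipase, fell to 0.0392 ± 0.0679 CPM in st66, against 1.83 ± 1.57 CPM in st54 (adjusted p = 0.015). In st66 vs st61, 0 were higher and 2 lower, prss2 and amy2b (adjusted p = 0.027 and 0.018). In T3 vs st54, 1 was higher and 1 lower (prss1.2, adjusted p = 0.045). The higher one was tmprss15, the intestinal enteropeptidase, which is not an enzyme of the acinar cell. It was part of the fixed list, and so of the 19 other enzyme genes used as a scale. Values of trypsin copies, like those of elastase copies, may be affected by how shared reads were counted.

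Of 12 tested acinar regulators and granule genes, 3 were higher and 0 lower in st61 vs st54 (10.0% and 8.85% of all genes): bhlha15, a transcription factor of secretory cells (adjusted p = 0.0050), rab3d, a granule GTPase (0.00011), and gata6, an endoderm regulator (0.033). In st54, rab3d (8.63 ± 1.08 CPM) and gata6 (55.5 ± 5.98 CPM) varied little while the 19 other enzymes ran from 494 to 3701 CPM. Which cells held the RNA of rab3d and gata6 was not tested. bhlha15 was also higher in st66 vs st54 (2.20 ± 1.73 CPM in st66, 0.479 ± 0.222 CPM in st54, adjusted p = 0.0078) and sycn, a zymogen granule protein, lower (1.43 ± 1.74 CPM in st66, 28.8 ± 31.5 CPM in st54, adjusted p = 0.035). In st66 vs st61, 0 were higher and 2 lower, cuzd1, a granule protein, and rab3d (adjusted p = 0.019 and 0.0020), and in T3 vs st54 none of the 12 was called. ptf1a, a regulator of acinar enzyme genes picked out after its values were seen, was at 1.80, 1.57 and 1.08 CPM in T3, above all st54 libraries at 0.515, 0.0681 and 0.240 CPM. It was at 0.369, 1.99 and 0.107 CPM in st61 and at 0 in all 3 st66 libraries. The floor of 3 counts was worth 0.151, 0.378 and 0.353 CPM in st66, above the 0.0681 CPM of st54 replicate 2. ptf1a was called in no comparison. Over all genes, the T3 and st54 libraries did not overlap in CPM, in either direction, for 54.1%.

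Genes of other sources were also counted, and their calls stand beside the same shares of all genes: 18.9% for st61 and 13.7% for st66 against st54, 10.0% for st66 against st61, and 17.0% for T3. The 4 tested endocrine pancreas genes, led by ins (insulin), gave 0 calls in every comparison, and their list summed to 1.72 to 34.3 CPM over all libraries. The 2 tested neutrophil granule genes, mpo (a peroxidase) and prtn3 (a serine protease), gave 0 calls as well. Of 10 tested elastase inhibitor genes, led by serpina1, the plasma antitrypsin, 3 were higher and 1 lower in st61 vs st54, 1 and 1 in st66 vs st54, 0 and 2 in st66 vs st61 and 0 and 0 in T3 vs st54. a2ml1, a macroglobulin gene, fell to 97.9 ± 32.8 CPM in st66, against 1312 ± 49.4 CPM in st54 (adjusted p = 0.00021). Of 8 tested intestinal genes, led by apoa4, 1 was higher and 2 lower in st61 vs st54, 2 and 2 in st66 vs st54, 0 and 1 in st66 vs st61 and 1 and 0 in T3 vs st54. Among them vil1 (villin) was lower in st61 and in st66 than in st54 (adjusted p = 0.0018 and 0.0023). Of 5 bile duct genes, led by krt19, 1 was higher in st61 vs st54, 2 were higher and 1 lower (cftr, adjusted p = 0.041) in st66 vs st54, and 0 were called in the other comparisons. Of the 13 liver genes, 2 were higher and 2 lower in st61 vs st54, 1 and 2 in st66 vs st54, 0 and 1 in st66 vs st61, and 0 and 2 in T3 vs st54. ttr (transthyretin) was lower in st66 than in st54 (adjusted p = 1.85e-05).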

How the data were processed

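Total RNA of 12 liver samples was made into libraries by Illumina's protocols. The authors deposited unnormalised gene counts, with 1 column a library. The submitters' processing notes name cutadapt 3.4 and STAR 2.7.8a, and duplicates had been marked, per the file headers. What became of marked duplicates and shared reads, the strand setting, build and annotation are not stated in the labels, notes or headers. The lines of 2 genes were broken over 6 lines and left out. The deposited table also gives each gene's summed exon length, used for TPM.

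Counts were fitted with edgeR 4.0.16 (R 4.3.3; TMM factors, filterByExpr leaving 15102 genes, robust quasi-likelihood, 4 group means, 8 residual degrees of freedom) in 1 fit of all 12 libraries, and called at an adjusted p under 0.05. SE is the size of the log2 change divided by the square root of F. Levels are CPM on column sums, so they differ from the scale of the fit by the TMM factors. The fit was also run on simulated data in which all genes had a common spread and replicates were independent. The elastase genes varied more than most, with a biological coefficient of variation of 53.5 to 98.7%, against a median of 23.2% over all genes. That run therefore cannot show how the fit performs for them or for the T3 libraries. Pooled ratios have exact conditional intervals. The floor was 3 counts, and intervals and floors cover counting error only. Same-numbered libraries of different groups did not deviate together (r from -0.11 to 0.16 over 18 pairs), so numbers were not taken as pairs.

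Named were all 9 elastase genes, called members of fixed lists by size of change or the most abundant, and the genes of most similar pattern. Members, lists and rules were chosen with earlier results of these data known. Alternatives were DESeq2 1.42.0, other factors, no filter, other sets of libraries, a replicate block, summed copies and other denominators.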

Additional observations from a re-analysis of the deposited data

How the results depend on the processing

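No called change of an elastase gene turned its direction, while signs of some changes that did not pass did turn. Over 718 values under alternatives, 681 stayed on their side of the threshold, 33 lost the call and 4 gained it. The 718 include changes that were never called and so could not lose a call. Losses fell on cela1.5 in st66 vs st54 and cela1.1 in st66 vs st61, with 12 of 20 alternatives each. The others were cela1.1 (5) and cela1.6 (3) in st66 vs st54 and cela3a (1) in st66 vs st61. In st66 vs st54 the lower calls (4) were 2 without the filter, 2 with the T3 libraries summed, 1 with only st66 and st54 fitted, and 1 to 4 without single libraries. In st66 vs st61 the higher call (cela3a) was 0 with only the groups compared (adjusted p = 0.052), and the lower call (cela1.1) was 2 with DESeq2 (cela1.5 added), 0 without the filter, with only the groups compared and with the T3 libraries summed, 0 with the replicate block, and 0 to 1 without single libraries. In T3 vs st54 the higher calls were 1 (cela1.2) with only T3 and st54 fitted. With the copies of a subfamily summed, 3 sums remain and fewer can be called: 1 higher and 1 lower (cela2a) in st61 vs st54, 1 and 1 in st66 vs st54, and 0 and 0 in st66 vs st61. The higher sum was that of the cela3 copies, by 7.67 ± 1.54 in st61 and 7.01 ± 1.52 in st66 against st54 (log2, adjusted p = 0.0051 and 0.010). The sum of the cela1 copies was called in neither (-0.11 ± 0.85 and -2.24 ± 0.89, adjusted p = 0.95 and 0.12). Higher calls were 3 to 4 (st61 vs st54) and 4 to 5 (st66 vs st54) without single libraries. The replicate block also ended the call of cela1.5 in st66 vs st54 (adjusted p = 0.060) and changed no other call. The log2 ratio of summed elastase means was -2.22 in st66 vs st54 and -2.19 in st66 vs st61 in CPM, -0.45 and -0.38 per count of the 20 other enzymes, and -0.16 and -0.35 without amy2b, a choice made after seeing the data. Without single libraries it ran from -3.25 to -1.51, from -3.21 to -1.17, from -1.05 to 0.67 in st61 vs st54 and from -0.21 to 0.96 in T3 vs st54. Where causes of these shifts are not given by the construction, the cause was not tested. Copies at a few counts in st54 limit every fold against that stage. Over all genes, calls in T3 vs st54 (1430 higher, 1140 lower) were 62 and 0 with the T3 libraries summed to 1, 546, 555 and 537 higher and 216, 209 and 205 lower without T3 replicates 1, 2 and 3, and 1864 and 1899 with DESeq2.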

Other observations

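Within the cela3 cluster, between cela3a and ela3b, the table lists LOC101734670, which has no gene name in the reference table. It was picked out after its values were seen. It had 0, 0 and 2 counts in st54, 84, 180 and 1 counts in st61 and 67, 123 and 137 counts in st66, or 3.38, 15.5 and 16.1 CPM in st66, and 2, 0 and 0 counts in the T3 libraries. The other gene listed there, LOC116412402, had 0 counts in every library. st61 replicate 3, the library with 28 counts of ela3b, had 1 count of LOC101734670.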
